A study of Mus musculus with 6 samples.

Results

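The genes described here are the 10 murine Toll-like receptor genes *Tlr1*, *Tlr2*, *Tlr3*, *Tlr4*, *Tlr5*, *Tlr6*, *Tlr7*, *Tlr8*, *Tlr9* and *Tlr13*, taken by symbol from the 24062 genes in the count tables. RNA was sequenced from 3 *Nf1fl/fl;DhhCre* mice and from 3 mice that were also floxed for *Runx1* and *Runx3* (*Rx1fl/fl;Rx3fl/fl;Nf1fl/fl;DhhCre*, here double knockout), all on a C57BL/6-I129 background, and the question was which transcripts differed when both RUNX factors were deleted together with *Nf1*. The Cre is driven by the desert hedgehog promoter, so that floxed genes are lost mainly in the Schwann cell lineage and immune cells, fibroblasts and neurons of the same tissue keep intact copies. The tissue is labelled as dorsal root ganglion for *Nf1fl/fl;DhhCre* and as neurofibroma tumor for the double knockout, whereas the study's methods call the material of both genotypes ganglia with their tumors. Its results section instead speaks of tumors for *Nf1fl/fl;DhhCre* and of ganglia with tumors for the double knockout. Sensory neuron markers, given below, were higher in the group labelled as tumor. A difference of tissue between the groups cannot be told apart from the genotype. The genotype label of the double knockout omits the *Nf1* allele that the protocol gives. The age of these mice is not given in the sources used here.

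Toll-like receptors are single-pass membrane proteins that recognise conserved molecules of microbes and some molecules released by damaged tissue. TLR1, TLR2, TLR4, TLR5 and TLR6 act mainly at the cell surface on lipoproteins, lipopolysaccharide and flagellin, whereas TLR3, TLR7, TLR8, TLR9 and TLR13 sit in endosomes and bind nucleic acids. All of them except TLR3 signal through the adaptor MYD88, and TLR3 uses TRIF, the product of *Ticam1*, which TLR4 uses as well. Macrophages, dendritic cells and other immune cells carry most of these receptors, and macrophages are a regular component of neurofibromas.

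The libraries held between 12439296 and 16682194 counts, so that 3 counts correspond to 0.179 to 0.247 CPM (a read count normalised to the total of its library, after scaling by TMM factors). *Runx1* itself measured 131, 141 and 172 CPM in *Nf1fl/fl;DhhCre* and 84.0, 78.9 and 185 CPM in double knockout, so the library labelled double knockout replicate 3 was not reduced. *Runx3* measured 19.9, 15.1 and 29.9 CPM against 13.5, 10.3 and 12.1 CPM. Neither difference passed the test (limma-voom, Benjamini-Hochberg adjusted p = 0.370 for *Runx1* and 0.104 for *Runx3*), and transcripts of a floxed allele can still be counted outside the deleted exons and in other cells. Skeletal muscle transcripts stood out in *Nf1fl/fl;DhhCre* replicate 2 and double knockout replicate 2, with summed levels of 5 markers of 1412 and 10317 CPM against 3.91 to 53.9 CPM in the other libraries. Schwann cell markers were present in both groups, with summed levels of 1370 to 1565 CPM in *Nf1fl/fl;DhhCre* and 1536 to 2051 CPM in double knockout. Of 7 such markers, *S100b* (log2 fold change 1.52, limma-voom adjusted p = 0.005982) and *Ngfr* (1.36, limma-voom adjusted p = 0.03011) were called higher, where 8.03% of all genes tested were. None was called lower, although 4 of the 7 had negative log2 fold changes. *Foxd3* was lower in every double knockout library but did not pass (-0.60, limma-voom adjusted p = 0.09846). *Ngfr* was called in 2 of the 6 omissions of a library. The 6 sensory neuron markers summed to 539 to 1200 CPM and 2893 to 6454 CPM respectively, and all 6 rose, where 8.03% of all genes tested were called higher. None of the 6 was called without *Nf1fl/fl;DhhCre* replicate 1, and *Rbfox3*, *Prph* and *Scn9a* were not called without its replicate 3 (limma-voom adjusted p = 0.0541 to 0.0745 at the highest over the omissions).

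All 10 receptor genes were expressed above the filter on low counts, and 9 of them were lower in every double knockout library than in every *Nf1fl/fl;DhhCre* library. This held for 20.5% of all 15652 genes tested. 7 of the 10 fell by more than 2-fold at an adjusted p below 0.05 (*Tlr1*, *Tlr3*, *Tlr4*, *Tlr6*, *Tlr7*, *Tlr8* and *Tlr13*), where 5.36% of all genes were called lower by this rule, and the same 7 passed on adjusted p alone, where 8.22% of all genes were lower. None of the 10 rose, against 8.03% of all genes called higher. The median log2 fold change was -2.29 over the receptor genes and 0.02 over all genes tested. Summed over the family, the level was 352, 278 and 466 CPM in *Nf1fl/fl;DhhCre* and 146, 70.9 and 99.6 CPM in double knockout. In bulk tissue, fewer cells of a type and less RNA per cell cannot be told apart. With the groups this small, the number called depended on single libraries: it was 3 without *Nf1fl/fl;DhhCre* replicate 1, 5 without its replicate 3, and 6, 3 and 4 without double knockout replicates 1, 2 and 3. It was 7 without *Nf1fl/fl;DhhCre* replicate 2, and 6 without both libraries that held muscle transcripts, a setting added after seeing the data.

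**Figure D1:**
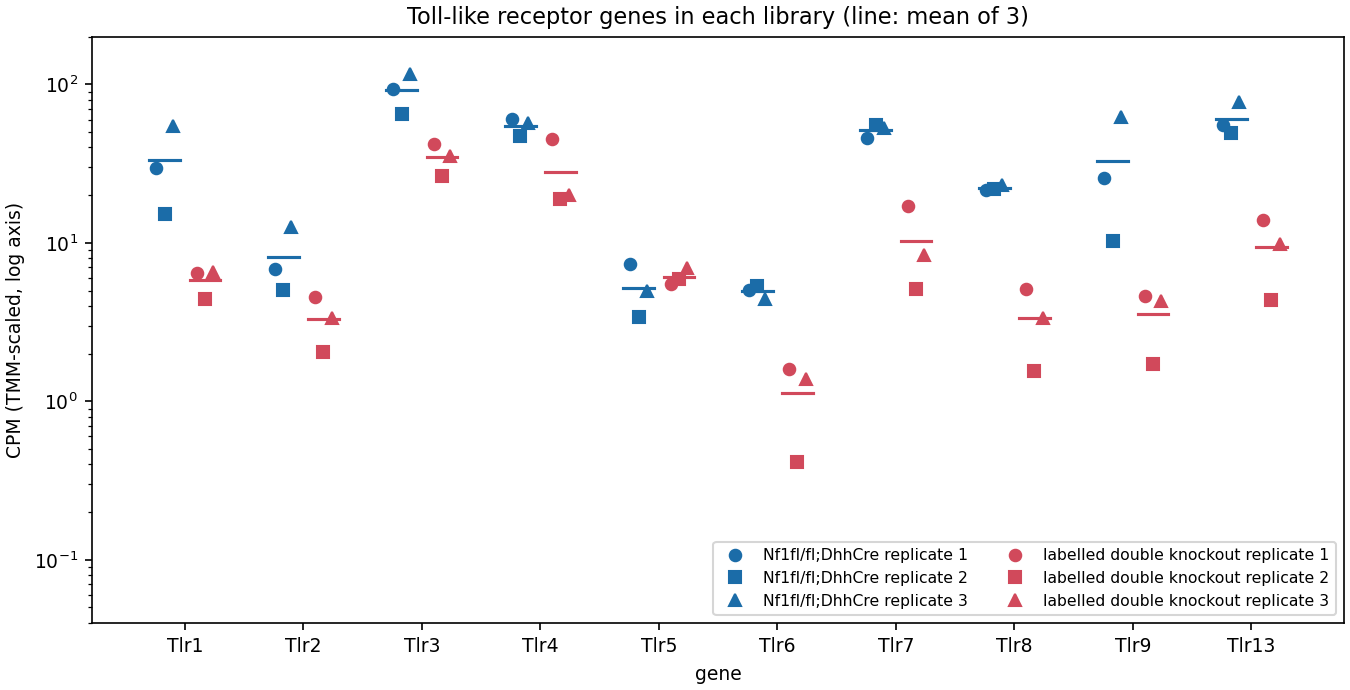
Level of each Toll-like receptor gene in each of the 6 libraries, in TMM-scaled CPM on a log axis; each point is 1 library and each line the mean of 3. The groups are separated for every gene except *Tlr5*, and the lowest double knockout point is replicate 2 for every gene except *Tlr5*.

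The 3 endosomal receptors for single-stranded RNA all fell. *Tlr7*, whose product binds guanosine-rich single-stranded RNA, measured 46.2, 55.2 and 53.2 CPM in *Nf1fl/fl;DhhCre* and 17.1, 5.10 and 8.38 CPM in double knockout. The *Nf1fl/fl;DhhCre* libraries lay close together and even the highest double knockout library was well below them. The means were 51.5 ± 4.72 and 10.2 ± 6.22 CPM (SD, n = 3 each), 5.05-fold lower in double knockout, with a log2 fold change of -2.51 (SE 0.35, limma-voom adjusted p = 0.009675). *Tlr8*, the neighbouring gene on the X chromosome and a second receptor for RNA breakdown products, measured 21.5, 21.7 and 23.3 CPM against 5.10, 1.56 and 3.37 CPM. Its *Nf1fl/fl;DhhCre* libraries differed by only 1.08-fold from lowest to highest, the smallest spread of the 10 genes. The mean was 6.63-fold lower in double knockout, with a log2 fold change of -2.85 (SE 0.36, limma-voom adjusted p = 0.008481). *Tlr13*, a rodent receptor for a conserved stretch of bacterial ribosomal RNA, measured 55.3, 49.4 and 77.4 CPM against 14.0, 4.36 and 9.84 CPM. The groups were again far apart, with a 6.45-fold lower mean and a log2 fold change of -2.79 (SE 0.39, limma-voom adjusted p = 0.009739). *Tlr7*, *Tlr8* and *Tlr13* were called under each of the 9 other settings and with each of the 6 libraries left out in turn, with log2 fold changes between -3.14 and -2.13 on leaving out a library.

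*Tlr9*, whose product recognises unmethylated CpG DNA, measured 25.8, 10.2 and 62.3 CPM in *Nf1fl/fl;DhhCre* and 4.62, 1.73 and 4.29 CPM in double knockout. Every double knockout library was below the lowest *Nf1fl/fl;DhhCre* library, but the latter spanned 6.08-fold, the widest range of the family. Its mean was 9.24-fold lower, the largest ratio of the 10 genes, yet the log2 fold change of -2.91 carried an SE of 1.0 and the difference did not pass (limma-voom adjusted p = 0.08232). It passed without *Nf1fl/fl;DhhCre* replicate 2 (log2 fold change -3.53, limma-voom adjusted p = 0.0161) and with edgeR's quasi-likelihood test (-3.20, adjusted p = 0.0232), and in 5 of the 9 other settings in all. *Tlr3*, the receptor for double-stranded RNA, measured 94.0, 65.4 and 116 CPM against 42.0, 26.4 and 35.5 CPM. The groups did not overlap, and the mean fell 2.65-fold (log2 fold change -1.39, SE 0.27, limma-voom adjusted p = 0.01707). The call was lost without *Nf1fl/fl;DhhCre* replicate 1 (-1.32, limma-voom adjusted p = 0.065) and without double knockout replicate 2 (-1.21, limma-voom adjusted p = 0.0549). *Tlr3* exons overlap 381 bases of the antisense gene *Gm45542*, and since the strand setting of the counting is not given in the sources used here, reads of the pair cannot be told apart there.

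**Figure D2:**
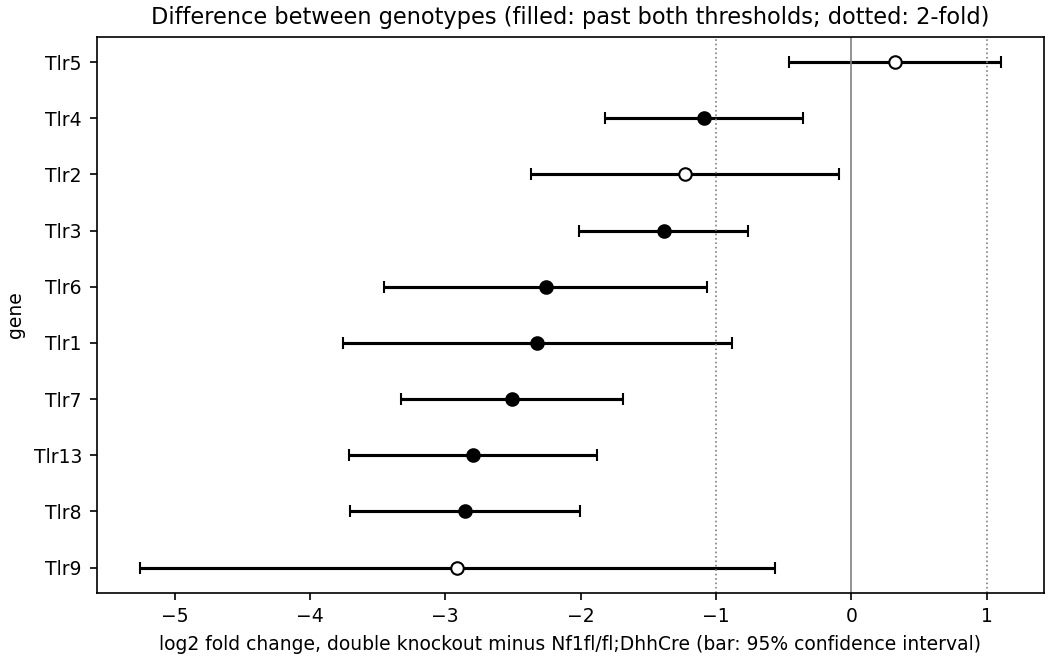
Log2 fold change of each Toll-like receptor gene, double knockout relative to *Nf1fl/fl;DhhCre*, with its 95% confidence interval from limma-voom; filled points passed both thresholds and dotted lines mark 2-fold. *Tlr8* has the interval farthest from 0, *Tlr9* the widest, and *Tlr5* alone lies above 0.

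Of the cell-surface receptors, *Tlr1* and *Tlr6* encode the alternative partners with which TLR2 forms heterodimers, TLR1 for triacylated and TLR6 for diacylated lipoproteins. *Tlr1* measured 29.7, 15.2 and 55.0 CPM in *Nf1fl/fl;DhhCre* and 6.46, 4.44 and 6.54 CPM in double knockout. The first group spread over 3.62-fold while the second lay close together and below it. Its mean was 5.73-fold lower (log2 fold change -2.32, SE 0.61, limma-voom adjusted p = 0.03931). This call was lost without *Nf1fl/fl;DhhCre* replicate 1 (-2.27, limma-voom adjusted p = 0.106) and without double knockout replicates 1, 2 or 3 (-2.35, -2.15 and -2.42, limma-voom adjusted p = 0.101, 0.119 and 0.104). *Tlr6* measured 5.06, 5.36 and 4.43 CPM against 1.59, 0.411 and 1.39 CPM, or 73, 90 and 69 against 20, 5 and 21 counts. The groups did not overlap, but the lowest library rested on 5 counts. The mean fell 4.38-fold (log2 fold change -2.26, SE 0.51, limma-voom adjusted p = 0.02556). Without *Nf1fl/fl;DhhCre* replicates 1 or 3, or double knockout replicates 2 or 3, *Tlr6* had log2 fold changes of -2.20, -2.28, -1.71 and -2.52 and no longer passed (limma-voom adjusted p = 0.076, 0.0568, 0.0649 and 0.0587). Without both libraries with muscle transcripts its log2 fold change was -1.64 (limma-voom adjusted p = 0.0765).

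*Tlr1* and *Tlr6* lie side by side on chromosome 5 and are near-copies over part of their coding sequence. In the GENCODE M21 transcripts on GRCm38, 454 windows of 50 bases occur in both genes, which is 13.6% of the windows of *Tlr1* and 12.3% of those of *Tlr6*. No other pair of the 10 genes shares such a window. The longest identical run is 229 bases at chr5:64925537-64925765 (minus strand) in the coding sequence of *Tlr1*, and its first 60 bases, chr5:64925706-64925765, are shown because a read falling there fits both genes.
*Tlr1* and *Tlr6*, shared stretch: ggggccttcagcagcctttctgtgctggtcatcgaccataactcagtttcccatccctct
How reads with several matches were counted is not given in the sources used here, so the split of reads between *Tlr1* and *Tlr6* is uncertain in these stretches, which applies to the levels of both genes above.

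*Tlr2*, the shared subunit of both heterodimers, measured 6.80, 5.06 and 12.6 CPM in *Nf1fl/fl;DhhCre* and 4.54, 2.06 and 3.37 CPM in double knockout. The groups were adjacent without overlap, the lowest library of the first being only 1.11-fold above the highest of the second. The log2 fold change of -1.23 (SE 0.49) did not pass in limma-voom (adjusted p = 0.1181) and passed only in DESeq2 among the settings run (-1.31, adjusted p = 0.0289). *Tlr4*, the lipopolysaccharide receptor, measured 60.3, 47.2 and 56.9 CPM against 45.0, 18.9 and 20.1 CPM. Double knockout replicate 1 lay only 1.05-fold below the lowest *Nf1fl/fl;DhhCre* library, while the other two were farther below it. The mean was 1.96-fold lower (54.8 ± 6.79 against 28 ± 14.8 CPM, SD, n = 3 each), and the fitted log2 fold change of -1.09 (SE 0.31) stood at the edge of the threshold with a limma-voom adjusted p of 0.04998. When 1 library was left out, *Tlr4* passed only without double knockout replicate 1 (-1.44, limma-voom adjusted p = 0.0121), and for the other 5 omissions its log2 fold change lay between -1.15 and -0.88 (limma-voom adjusted p = 0.0638 to 0.154). It missed one or both thresholds under edgeR (-0.97, adjusted p = 0.0912) and DESeq2 (-0.98, adjusted p = 0.0283), and passed in 4 of the 9 other settings.

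*Tlr5*, the flagellin receptor, was the only member without a lower level in double knockout. It measured 7.35, 3.40 and 4.94 CPM in *Nf1fl/fl;DhhCre* and 5.5, 5.92 and 6.93 CPM in double knockout. The values of the groups were intermixed. The log2 fold change was 0.32 (SE 0.33, 95% confidence interval -0.46 to 1.10, limma-voom adjusted p = 0.5311), an interval that includes both no change and a 2-fold rise.

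*Tlr7*, *Tlr8* and *Tlr13* are X-linked, at chrX:167304929-167330558 (minus strand), chrX:167242696-167264329 (minus strand) and chrX:106143204-106160493 (plus strand) in GRCm38. By *Xist* and *Ddx3y*, *Nf1fl/fl;DhhCre* replicates 1 and 3 and double knockout replicate 1 came from females and the other 3 libraries from males, so sex was not balanced between the groups. In females, the double knockout level was lower by 2.90-fold for *Tlr7*, 4.39-fold for *Tlr8* and 4.73-fold for *Tlr13*. In males, the corresponding ratios were 8.18, 8.82 and 6.96. Each ratio rests on 2 libraries against 1, and no test was made within a sex. The same 9 genes lay below without overlap within either sex, as did 39.8% of all genes tested in females and 38.4% in males, and *Tlr5* was intermixed in females and higher in the double knockout in males. With sex as a covariate, the log2 fold changes were -2.32 for *Tlr7*, -2.69 for *Tlr8* and -2.55 for *Tlr13* (limma-voom adjusted p = 0.0122, 0.00987 and 0.00919).

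The remaining genes are spread over other chromosomes. In GRCm38, *Tlr1* lies at chr5:64924679-64933563 and *Tlr6* at chr5:64952031-64960097, both on the minus strand. *Tlr2* lies at chr3:83836272-83841767 (minus strand), *Tlr3* at chr8:45395665-45411080 (minus strand), *Tlr4* at chr4:66827584-66930284 (plus strand), *Tlr5* at chr1:182954788-182976044 (plus strand) and *Tlr9* at chr9:106222598-106226883 (plus strand).

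Because the mice differed in *Runx1* and *Runx3*, the promoters were searched for the core letters bound by RUNX factors and for those of 3 families of factors known from myeloid and inflammatory genes. The windows ran from 250 bases before to 50 bases after the start in RefSeq (GRCm38.p6), both strands were read, and 8 of the 10 genes matched with 10 promoters, *Tlr1* and *Tlr6* having 2 each. The RUNX letters TGTGGT occurred in 1 of the 10 promoters and in 16.8% of all 32851 promoters of that length. The ETS letters of PU.1, GAGGAAGT, occurred in 2 of 10 and in 3.20% of all. The NF-kB letters GGG and CC separated by any 5 bases were found in 4 of 10 and 50.8%, and the interferon response letters, GAAA and again GAAA after any 2 bases, in 1 of 10 and 3.44%. The RUNX and PU.1 matches and the NF-kB match farthest upstream in *Tlr2* are shown with up to 30 bases each, written in the gene's direction with the matching letters in capitals, at chr5:64959281-64959310 (minus strand), chr5:64933563-64933592 (minus strand), chr9:106222597-106222626 (plus strand) and chr3:83841762-83841791 (minus strand).
*Tlr6*, RUNX letters: cacttttggtttTGTGGTtgactattcttt
*Tlr1*, PU.1 letters: attaaatgttgGAGGAAGTaggagcttgaa
*Tlr9*, PU.1 letters on the opposite strand: gtgaaagtgtcACTTCCTCaattctctgag
*Tlr2*, NF-kB letters: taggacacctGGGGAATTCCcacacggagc
The match in *Tlr6* begins 132 bases before the start, that in *Tlr1* 23 bases before and that in *Tlr2* 173 bases before it. A match of letters is not a bound site, and binding was not analysed here.

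To compare levels between genes, CPM was divided by the exon length in kilobases. In *Nf1fl/fl;DhhCre* the order was *Tlr3* (17.6 ± 4.89 CPM per kb, SD, n = 3), *Tlr13* (14.1 ± 3.42), *Tlr7* (12.6 ± 1.16), *Tlr1* (9.95), *Tlr4* (9.87), *Tlr9* (9.42), *Tlr8* (6.18), *Tlr2* (2.70), *Tlr6* (1.33) and *Tlr5* (1.09). Neighbours in this order overlapped over the libraries except at the steps from *Tlr8* to *Tlr2* and from *Tlr2* to *Tlr6*. In double knockout the order was *Tlr3* (6.65 CPM per kb), *Tlr4* (5.04), *Tlr7* (2.50), *Tlr13* (2.19), *Tlr1* (1.74), *Tlr5* (1.28), *Tlr2* (1.10), *Tlr9* (1.02), *Tlr8* (0.932) and *Tlr6* (0.303), and neighbours overlapped at every step but the last. *Tlr3* was thus at the head of both orders, whereas *Tlr5* moved from the last place to the middle.

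The make-up of the family's reads differed accordingly. *Tlr3* supplied 23.5 to 26.7% of the reads assigned to the 10 genes in *Nf1fl/fl;DhhCre* and 28.8 to 37.2% in double knockout. The share of *Tlr4* was 12.2 to 17.1% against 20.1 to 30.8%, and that of *Tlr5* 1.06 to 2.09% against 3.77 to 8.35%. *Tlr2* supplied 1.82 to 2.70% against 2.90 to 3.38%. In the opposite direction, *Tlr13* supplied 15.7 to 17.8% against 6.15 to 9.87%, and *Tlr8* 5.0 to 7.82% against 2.20 to 3.49%. None of these ranges overlapped between the groups. The shares of *Tlr1*, *Tlr6*, *Tlr7* and *Tlr9* did, that of *Tlr7* at 11.4 to 19.8% against 7.19 to 11.7%. Shares of a sum are bound to each other, so these are descriptions without a test.

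**Figure D3:**
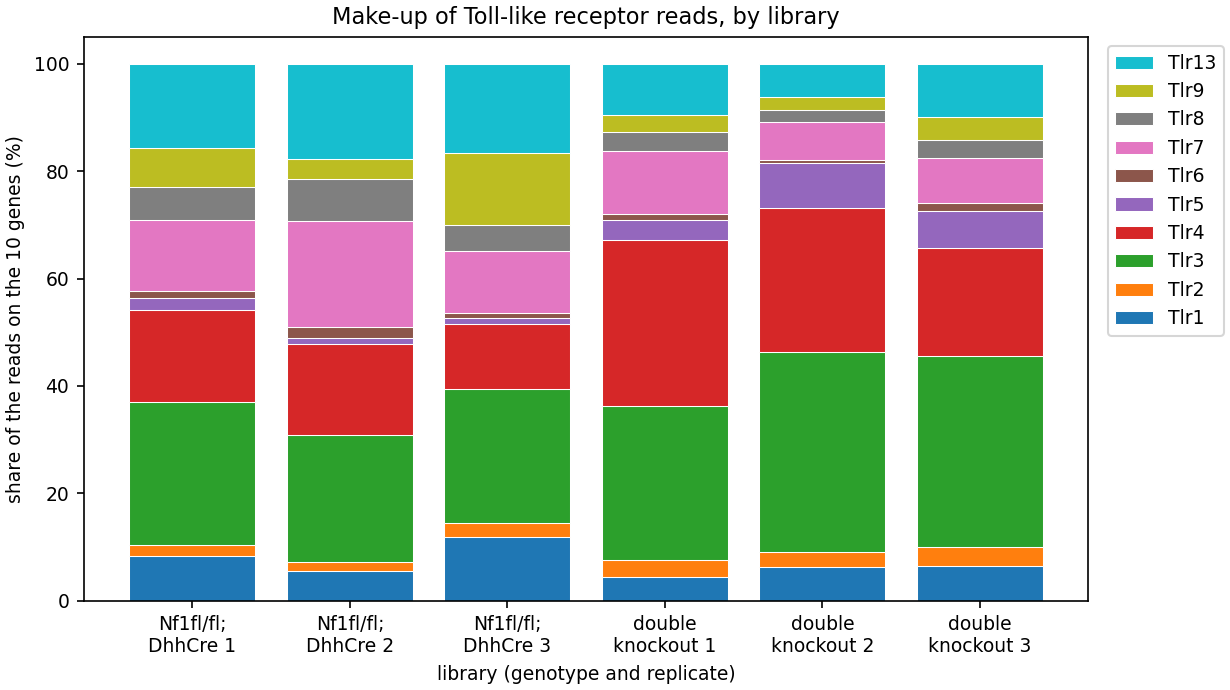
Percent of all reads assigned to the 10 Toll-like receptor genes that each gene supplied, 1 bar per library. *Tlr3* and *Tlr4* together take a larger part in each double knockout library, and *Tlr13* and *Tlr8* a smaller one.

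The libraries of 1 genotype did not vary alike for all receptors. Among *Nf1fl/fl;DhhCre* libraries, *Tlr1*, *Tlr2*, *Tlr3*, *Tlr9* and *Tlr13* were lowest in replicate 2 and highest in replicate 3, and the coefficient of variation reached 81.5% for *Tlr9* and 60.5% for *Tlr1*. *Tlr6*, *Tlr7* and *Tlr8* hardly varied there, with coefficients of 9.66%, 9.17% and 4.36%. Among double knockout libraries, replicate 2, with the most muscle transcripts, was lowest for every receptor gene except *Tlr5*. With a muscle score as covariate, 7 receptor genes were called, *Tlr4* losing its call (limma-voom adjusted p = 0.0667) and *Tlr9* gaining one (0.00522). Without both libraries with muscle transcripts, *Tlr4* (limma-voom adjusted p = 0.14) and *Tlr6* (0.0765) lost theirs and *Tlr9* (0.0343) gained one.

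Over the 6 libraries, the genes nearest to each receptor in centred log2 CPM were listed by Euclidean distance. *Tlr8* and *Tlr13* were among each other's 3 nearest genes (distance 0.407), with *Ms4a6d* nearest to *Tlr8* (0.353) and *Timp1* nearest to *Tlr13* (0.237). Nearest to *Tlr7* was *Gdnf* (0.158). *Tlr9* was nearest to *Cd180* (0.469), *Gpr65* (0.549) and *Cd74* (0.556), and *Tlr1* to *Map4k1* (0.426) and *Syk* (0.436). The nearest genes were *Egflam* for *Tlr3* (0.167), *Mpzl3* for *Tlr4* (0.235), *Tmem261* for *Tlr5* (0.215), *Fbn2* for *Tlr6* (0.442) and *Cd276* for *Tlr2* (0.296). With 6 libraries in 2 groups, such distances take in both the difference between the groups and the order of the libraries within them.

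Macrophage transcripts moved with the receptors. The 12 macrophage markers tested summed to 1595, 1169 and 2189 CPM in *Nf1fl/fl;DhhCre* and 526, 233 and 409 CPM in double knockout, with a median log2 fold change of -2.30. 9 of the 12 fell, where 5.36% of all genes tested were called lower, among them *Itgam* (-2.89, limma-voom adjusted p = 0.01004), *Csf1r* (-2.16, limma-voom adjusted p = 0.01597) and the complement gene *C1qb* (-2.65, limma-voom adjusted p = 0.01695). *Aif1*, *Cd163* and *Mertk* did not pass, and no macrophage marker was at 0 in all libraries. The number of macrophage markers called lower was 1 without *Nf1fl/fl;DhhCre* replicate 1, 5 without double knockout replicate 2, and 7 to 9 without any other library. Dendritic cell and monocyte markers summed to 171 to 411 CPM against 46.6 to 90.1 CPM, and 2 of 6 (*Ccr2* and *Flt3*) fell, *Flt3* losing its call on each omission of a library (limma-voom adjusted p = 0.055 to 0.134). *Ccr2* lost its call without *Nf1fl/fl;DhhCre* replicate 1 (limma-voom adjusted p = 0.0583). None of the 4 B cell markers was called, with sums of 2.77 to 12.4 CPM against 3.83 to 5.26 CPM, nor any of the 4 T cell markers tested, all 5 T cell markers summing to 11.1 to 42.1 CPM against 3.04 to 5.66 CPM. The median log2 fold change was 0.11 over the B cell markers and -2.11 over the 4 T cell markers tested, all 4 of which had negative values. At an unadjusted p below 0.05 in limma-voom, 0 B cell and 1 T cell marker were lower, edgeR called 0 and 1 of them lower and DESeq2 0 and 2. Fibroblast markers summed to 6223 to 7124 CPM against 2275 to 3584 CPM, and 3 of 4 fell (*Dcn*, *Lum* and *Pdgfra*). Of these, 1 was called without *Nf1fl/fl;DhhCre* replicate 1, and *Pdgfra* was called in 1 of the 6 omissions (limma-voom adjusted p = 0.0348 to 0.116). The part of these cell types in the receptor differences was not tested.

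The receptors were also set against the summed macrophage markers, a ratio that was chosen after the values were seen and is given without a test. Because the marker sum was itself lower in double knockout, the median gene tested had a ratio higher by 2.13 on the log2 scale. The ratio of 86.8% of all genes tested was higher in each double knockout library than in any other library, and that of 0.875% was lower. *Tlr2*, *Tlr3*, *Tlr4* and *Tlr5* had a higher ratio to the macrophage markers in each double knockout library than in any *Nf1fl/fl;DhhCre* library, by 0.85, 0.72, 1.03 and 2.41 on the log2 scale, so that most genes did as these 4, and only *Tlr5* reached the median of all genes. *Tlr8* and *Tlr13* had a lower ratio in each double knockout library, with differences of -0.77 and -0.70. *Tlr1*, *Tlr6*, *Tlr7* and *Tlr9* overlapped between the groups, with differences of -0.23, -0.23, -0.40 and -0.85. The same genes overlapped, and the same did not, when the mean log2 CPM of the 12 markers was used in place of their sum.

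**Figure D4:**
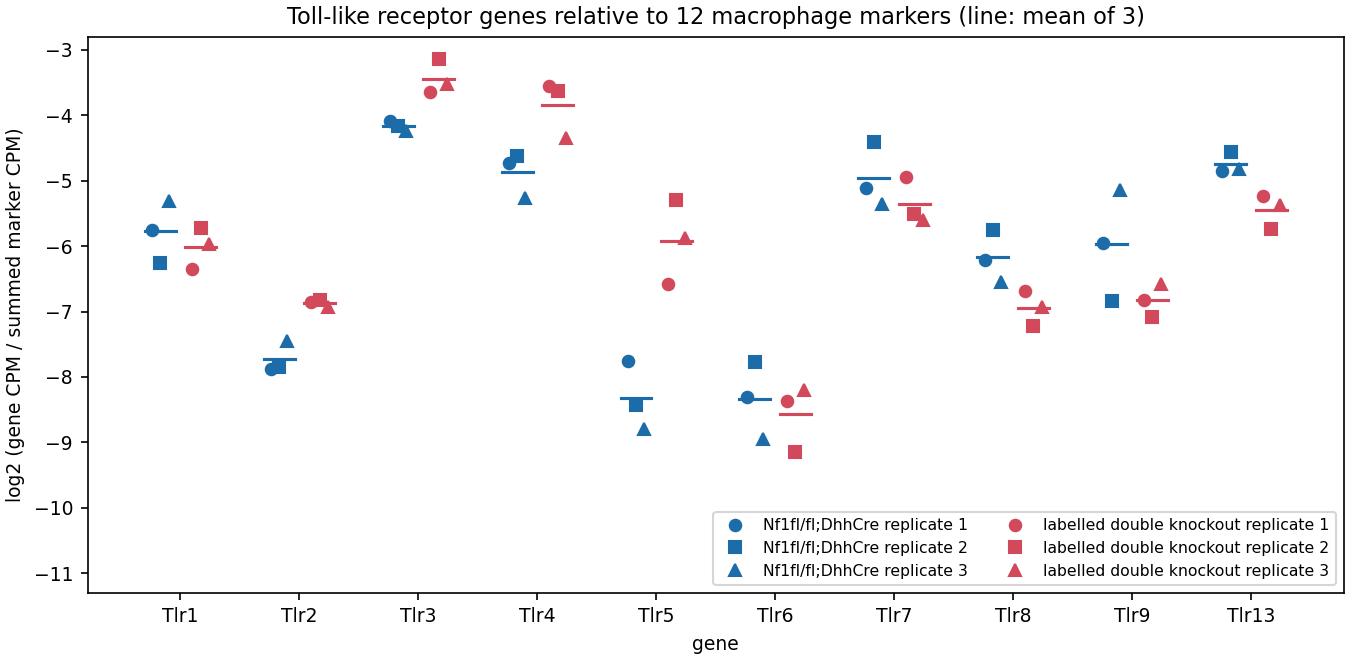
Log2 ratio of each Toll-like receptor gene to the summed CPM of 12 macrophage markers in each library; each point is 1 library and each line the mean of 3. *Tlr2*, *Tlr3*, *Tlr4* and *Tlr5* are higher in double knockout on this scale, as are 86.8% of all genes tested, *Tlr8* and *Tlr13* lower, and the other 4 genes overlap.

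Around the receptors, 83 genes were examined in lists by role, 71 of which passed the filter on low counts. They are called pathway genes here, although they include innate sensors outside the Toll-like receptor family. 17 of the 71 fell and none rose, with a median log2 fold change of -0.67, against 5.36% of all genes called lower. The other innate sensors supplied 7 of the 17 and the endogenous ligands 3. The number that fell was 2 without *Nf1fl/fl;DhhCre* replicate 1, 22 without its replicate 2 and 14 without its replicate 3, and 10, 6 and 6 without double knockout replicates 1, 2 and 3. Without double knockout replicate 3, 2 pathway genes were called higher as well, and none was on the other omissions.

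Of the 14 co-receptors and chaperones, 4 fell and none rose (median log2 fold change -0.69), against 5.36% of all genes tested called lower and 8.03% called higher. *Ctss*, the endosomal protease that cleaves nucleic acid receptors, measured 191, 112 and 364 CPM in *Nf1fl/fl;DhhCre* and 25.6, 7.07 and 22.2 CPM in double knockout (log2 fold change -3.60, SE 0.62, limma-voom adjusted p = 0.01337). *Unc93b1*, which carries the endosomal receptors from the endoplasmic reticulum, measured 43.3, 29.8 and 78.7 CPM against 14.6, 7.73 and 13.5 CPM (-2.0, SE 0.45, limma-voom adjusted p = 0.0255). *Cd180*, a receptor homologue of B cells and macrophages, had a log2 fold change of -3.0 (limma-voom adjusted p = 0.03946), and *Lbp*, which hands lipopolysaccharide to CD14, of -1.60 (limma-voom adjusted p = 0.02951). *Cd14* and *Ly96*, partners of *Tlr4*, did not pass. *Cd14* was low in both groups, at 2.91 to 4.55 CPM against 0.658 to 2.15 CPM (-1.69, limma-voom adjusted p = 0.06289), and *Ly96* measured 15.2 to 31.2 CPM against 7.81 to 15.6 CPM (-0.81, limma-voom adjusted p = 0.1599). Without *Nf1fl/fl;DhhCre* replicate 1 none of the co-receptors and chaperones was called (limma-voom adjusted p = 0.0543 for *Ctss*), and *Cd180* was called only without *Nf1fl/fl;DhhCre* replicate 2 (limma-voom adjusted p = 0.00879). *Unc93b1* was not called on omission of any double knockout library, and *Lbp* not without double knockout replicates 2 or 3.

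Among the 6 adaptors only *Myd88* was called in limma-voom, against 5.36% of all genes tested called lower and 8.03% higher, with a fall from 7.35, 6.43 and 9.62 CPM to 2.95, 4.11 and 3.43 CPM (log2 fold change -1.14, SE 0.30, limma-voom adjusted p = 0.03876). It was called in 1 of the 6 omissions, without *Nf1fl/fl;DhhCre* replicate 2, with log2 fold changes of -1.25 to -0.95 over all 6 and limma-voom adjusted p of up to 0.115. Both *Pik3ap1* and *Sarm1* were named after their values were seen. *Pik3ap1*, an adaptor between receptors and PI3K, measured 25.2, 11.1 and 48.7 CPM against 3.67, 0.822 and 3.63 CPM and missed the threshold (-3.33, SE 0.99, limma-voom adjusted p = 0.05528). *Sarm1*, an adaptor found mainly in neurons, measured 3.61, 6.43 and 8.92 CPM against 14.0, 13.6 and 31.0 CPM and missed it as well, in the opposite direction (1.62, SE 0.47, limma-voom adjusted p = 0.05019). edgeR and DESeq2 each called 2 adaptors lower and 1 higher. *Tirap*, which bridges MYD88 to TLR2 and TLR4, had a log2 fold change of -0.26 (limma-voom adjusted p = 0.4702) and *Ticam1* of -0.58 (limma-voom adjusted p = 0.1231). *Ticam2*, which couples TLR4 to TRIF, measured 6.52, 3.46 and 15.2 CPM against 2.95, 0 and 2.18 CPM and did not pass (limma-voom adjusted p = 0.1655). None of the 19 kinases and ubiquitin ligases that relay the signal was called by limma-voom, edgeR or DESeq2, a count near the shares of all genes, and their median log2 fold change was -0.07. At an unadjusted p below 0.05 in limma-voom, 4 of them were lower and 3 higher. *Irak4*, the first kinase of the complex, had a log2 fold change of -0.86 (limma-voom adjusted p = 0.07287), *Irak1* of -0.16 (limma-voom adjusted p = 0.3817) and the ubiquitin ligase *Traf6* of -0.06 (limma-voom adjusted p = 0.8085).

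Of 6 transcription factors, *Irf8* and *Irf5* fell, where 5.36% of all genes tested did. *Irf8*, a factor of myeloid development, measured 27.8, 19.9 and 54.6 CPM in *Nf1fl/fl;DhhCre* and 4.86, 4.28 and 8.05 CPM in double knockout (log2 fold change -2.45, SE 0.53, limma-voom adjusted p = 0.02289). *Irf5*, which drives inflammatory cytokine genes, measured 15, 9.17 and 24.2 CPM against 3.51, 3.62 and 2.05 CPM (-2.34, SE 0.55, limma-voom adjusted p = 0.02826). *Irf7*, the inducer of type I interferon genes behind TLR7 and TLR9, was lower in every double knockout library but missed the threshold (-2.56, SE 0.74, limma-voom adjusted p = 0.05099). *Irf8* and *Irf5* were called only without *Nf1fl/fl;DhhCre* replicates 2 or 3 when 1 library was left out, and their limma-voom adjusted p rose to at most 0.0763 and 0.0902 on the other omissions. None of the 4 inhibitors tested was called by limma-voom, edgeR or DESeq2, and 1 was higher at an unadjusted p below 0.05. *Tollip* had a log2 fold change of 0.45 (limma-voom adjusted p = 0.1245) and *Irak3* of -0.80 (limma-voom adjusted p = 0.1504), and *Sigirr* was too low to test (0.238 to 1.15 CPM). Of 13 target genes, 8 were too low to test and none of the other 5 was called in limma-voom (2 lower at an unadjusted p below 0.05, and 1 called lower by edgeR and by DESeq2), with a median log2 fold change of -2.10. All 5 had negative log2 fold changes. Of the 13, 4 lay below without overlap, and 1 of these, *Il10*, was too low to test. Of all genes tested, 20.5% lay below without overlap, a share that leaves out genes too low to test. The 4 included the cytokine genes *Il1b* (-3.10, SE 1.39, limma-voom adjusted p = 0.1606) and *Tnf* (-2.69, SE 1.02, limma-voom adjusted p = 0.1055). *Il1b*, *Tnf* and *Il10* were named after their values were seen.

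**Figure D5:**
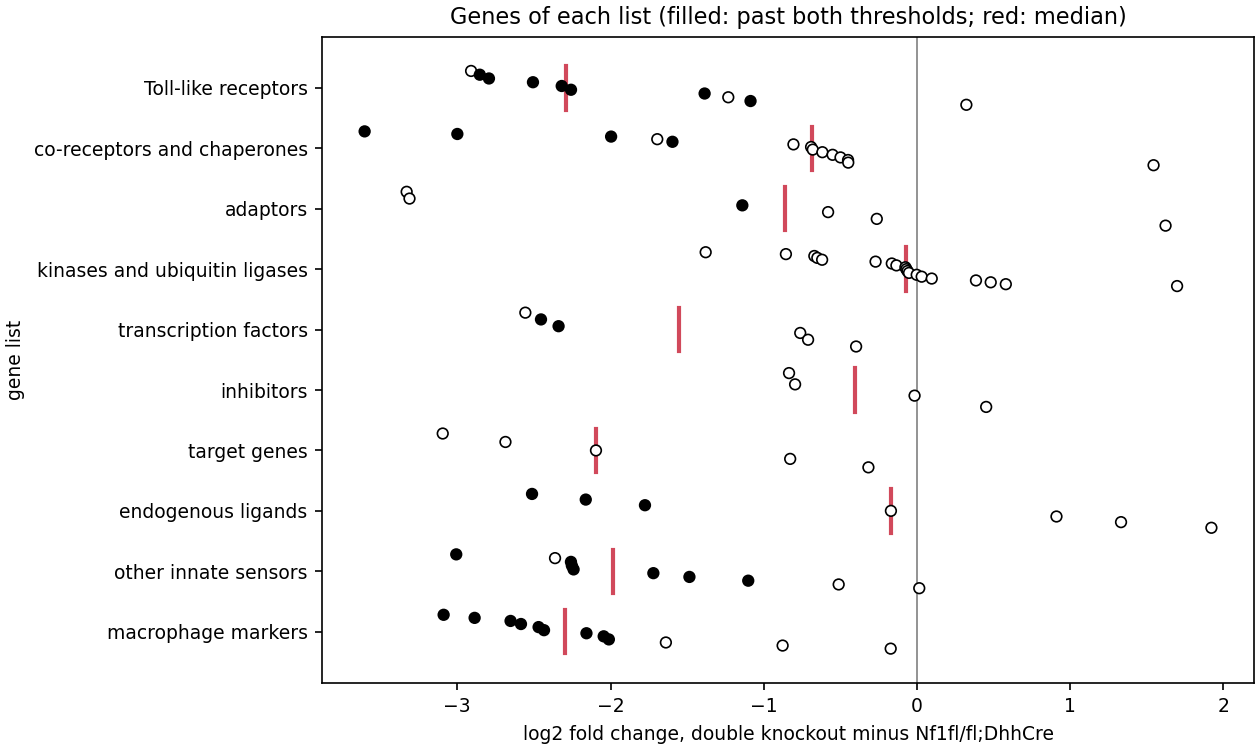
Log2 fold change of each tested gene of the gene lists, double knockout relative to *Nf1fl/fl;DhhCre*, with 1 row per list; filled points passed both thresholds and the red mark is the median. Genes of most lists lie mostly below 0, whereas the kinases and ubiquitin ligases lie around it and the endogenous ligands on both sides.

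Of the 7 endogenous ligands tested, 3 matrix genes fell and none rose past both thresholds, against 5.36% and 8.03% of all genes tested, and the median was -0.17. *Hspd1*, named after its values were seen, was higher in each double knockout library (0.91, limma-voom adjusted p = 0.03039) but under 2-fold. *Tnc*, an extracellular matrix glycoprotein that can act on TLR4, measured 215, 130 and 248 CPM in *Nf1fl/fl;DhhCre* and 54.5, 20.2 and 33.3 CPM in double knockout (log2 fold change -2.51, limma-voom adjusted p = 0.01107). The proteoglycan genes *Bgn* and *Vcan* had log2 fold changes of -2.16 and -1.78 (limma-voom adjusted p = 0.007688 and 0.01084). *Bgn* was called on every omission of a library, and *Tnc* and *Vcan* on all but that of *Nf1fl/fl;DhhCre* replicate 1 (limma-voom adjusted p = 0.0514 and 0.0518). The fibroblast markers differed in the same direction, as given above, and their part in these differences was not tested.

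Innate sensors outside the family moved in the same direction as the receptors. 7 of the 10 tested fell and none rose, against 5.36% and 8.03% of all genes tested, with a median log2 fold change of -1.98. *Aim2*, a cytosolic DNA sensor, measured 35.6, 17.8 and 58.8 CPM in *Nf1fl/fl;DhhCre* and 4.54, 3.12 and 4.69 CPM in double knockout (log2 fold change -3.01, SE 0.66, limma-voom adjusted p = 0.02313). *Nlrp3*, the inflammasome sensor, *Tmem173*, which encodes STING, and *Dhx58*, a helicase of the RIG-I family, had log2 fold changes of -2.26, -2.25 and -2.24 (limma-voom adjusted p = 0.03938, 0.01754 and 0.0185). The number of these sensors called lower was 1 without *Nf1fl/fl;DhhCre* replicate 1, 2 without either double knockout replicate 2 or 3, and 5 to 8 on the other omissions.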

How the data were processed

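RNA from 6 mice (3 per genotype) was amplified (Ovation RNA-Seq System v2), sequenced as paired ends, aligned by the authors with TopHat to mm10 and counted per gene with featureCounts, and the deposited values are raw read counts. The annotation, the strand setting and the treatment of multi-mapping reads are not given in the sources used here. Samples were grouped by genotype label. Replicate numbers follow accession order and are names only, and nothing beyond mouse numbers says that the libraries are independent, so p-values measure the spread between these libraries. Libraries of a group differed by more than counting noise.

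Counts were filtered (filterByExpr, minimum count 10, total 15), scaled by TMM and tested over 15652 genes with voom in limma 3.58.1 (R 4.3.3), with Benjamini-Hochberg adjustment; a call needed an adjusted p below 0.05 and a fold change above 2, after the study's methods. CPM values use TMM-scaled library sizes. The fit was tested on simulated data. Alternatives were edgeR 4.0.16 (quasi-likelihood), DESeq2 1.42.0, other scalings, filters, weights and covariates, and leaving out each library. Receptors and lists were chosen with earlier results of these data known. All 10 receptors are named; of each pathway list, up to 4 called genes with the largest change are named, plus 15 pathway genes irrespective of their values, and the cell type markers named were chosen after their values were seen. Promoters are from RefSeq.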

Additional observations from a re-analysis of the deposited data

How the results depend on the processing

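No receptor gene changed direction under any of the 9 other settings on all libraries or on leaving out a library, which gave 90 and 60 values. Of these, 79 and 44 kept their side of the thresholds, 5 and 15 lost the call and 6 and 1 gained it. On leaving out 1 library at a time, the number of receptor genes called ranged from 3 to 7, that of pathway genes from 2 to 22 and that of all genes from 362 to 2285, against 7, 17 and 2096 with all libraries. edgeR called 7 receptor genes and 2264 genes in all, DESeq2 8 and 2907. Leaving out both libraries with muscle transcripts, chosen after seeing the data, left 6 receptor, 20 pathway and 1752 genes. No paired analysis was possible because the replicate numbers follow accession order and the labels give none that the groups share. Depth limits *Tlr6* most, with 5 to 21 counts in double knockout. By the run number in the deposited names, a double knockout library came from another sequencing run. Sample titles and deposited names disagree on mouse numbers, so it is replicate 2 or 3. The numbers of receptor genes called without each are given above. Without double knockout replicates 2 and 3, the log2 fold changes were -2.49 and -3.12 for *Tlr9*, -0.95 and -1.27 for *Tlr2*, and 0.35 and 0.22 for *Tlr5*. None of these was called.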
